A study of Mus musculus with 912 samples.

Results

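Blnk, the gene of the B cell linker protein, was 1 of 42772 genes with a value in every single-nucleus library of the mouse hippocampus, and the data here are its counts and its log2(TPM+1) levels in each nucleus. TPM is a measure of transcript abundance corrected for transcript length and library depth. Hippocampi came from female C57BL6 mice, labelled 7.75 to 9 weeks old, that stayed in the home cage (HC) or explored an unfamiliar environment (NE, context A) for 15 min. Nuclei were flow sorted and sequenced 1 by 1. At 1 h after the NE, nuclei were sorted as FOS+ or FOS−, FOS being the protein of an immediate early gene that marks recent neuronal activity. At 4 h and 5 h, nuclei of the dentate gyrus (DG) that held ARC protein and lacked FOS were sorted (ARC+), ARC being a more persistent activity marker. Further mice were placed 4 h after the first NE into context A again (A > A) or into a different context C (A > C), and ARC+ DG nuclei were sorted 1 h later into FOS+ and FOS−. No mouse carried an engineered allele or received a drug.

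Of 912 deposited nuclei, 783 from 31 mice were kept, 558 of them DG nuclei and 225 of other predicted cell types (CA1, VIP, CA3, Sub, Ivy, Pvalb and Th in the labels). The kept nuclei held 142275 to 5885216 gene counts (median 1251690). Median depth was lowest at 5 h (426841 counts) and highest at 4 h (2469300 counts) among the DG groups. The DG granule marker genes summed to a median of 458 TPM in DG nuclei, 120 TPM in VIP nuclei and 3.2 TPM in CA1 nuclei. The VIP marker genes, led by Vip, Gad1 and Gad2, summed to a median of 6716 TPM in VIP nuclei and 2.9 TPM in DG nuclei, although the DG groups ranged from 0.63 TPM in HC to 185 TPM in 1 h FOS+. The CA1 marker genes summed to 435 TPM in CA1 nuclei and 0.9 TPM in DG nuclei. Each of these lists thus had its highest median in the cell type it marks among these 3 types. DG nuclei 1 h after exposure came from a single mouse, FOS+ and FOS− alike, and the 2 larger HC samples of DG came from mice 6 and 7.

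The study picked Blnk from these same nuclei, as a gene called at 4 h and 5 h against HC and not at 1 h, and as a predictor of reactivation among the first A > A mice. Its levels in HC, 1 h FOS+, 4 h, 5 h and the first A > A mice are therefore given as a description, with no test. Tests were kept to groups that played no part in that choice: CA1 and VIP nuclei, A > C nuclei, 1 h FOS− nuclei of DG, and A > A mice 26 and 27, taken as a later cohort from their date code since the labels name no cohorts. The difference between 5 h and 4 h was tested as well. Both of its groups entered the choice through their difference from HC, so neither level is independent of it. Apart from the sequenced nuclei, the study reports fluorescent in situ hybridization for Blnk and Sorcs3 in brain sections stained for ARC protein. At the later time point shown, it describes substantial overlap of both transcripts with ARC+ cells of the DG. Those images are not among the data used here.

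BLNK, also called SLP-65, is a cytoplasmic adaptor best known from B lymphocytes. When the B cell receptor is engaged, the kinase SYK phosphorylates BLNK, which then holds together phospholipase C gamma, the kinase BTK, VAV exchange factors and GRB2, so that calcium release and MAP kinase signalling follow. DG granule neurons are the principal cells of the dentate gyrus, fire sparsely, and answer a new environment with waves of immediate early and then later transcription.

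Blnk (ENSMUSG00000061132.13) lies on the minus strand of chromosome 19 at chr19:40928927-40994535 in GRCm38 (GENCODE M21) and spans 65609 bp. The annotation gives 3 transcripts. Blnk-201 has 17 exons and 2097 nt, Blnk-202 has 17 exons and 1701 nt, and Blnk-203 is a retained intron form. No other annotated gene overlaps Blnk. Its neighbours are Zfp518a, a zinc finger gene 10979 bp away, and Dntt, the terminal transferase of developing lymphocytes, 34739 bp away.

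The RefSeq promoter window of Blnk, chr19:40994172-40994471 on the minus strand (GRCm38.p6), runs from 250 bases before to 50 after the start site and falls wholly in the 5′ UTR exon of the longer Blnk-201. Because activity-regulated promoters are often discussed by their factor motifs, the window was searched on both strands for the cAMP response element (CRE, TGACGTCA), its core (TGACG), AP-1 (TGANTCA), the E-box (CANNTG), EGR (GCGTGGG) and the ETS core (GGAA). Only the E-box and the ETS core matched. The stretches around the matches are printed below from 5′ to 3′ on the strand of the gene, named by their position from the start site, with the motif in capitals.
E-box at -243: ctctggcCATCTGctaaaaacagg
E-box at -160: acctggcaacaCACCTGatcataaaaga
E-box at -51: actccctggatCACATGacctcgtagaa
ETS core at -201: tgggacaaacaGGAAgtagtgctcag
ETS core at -137: aaagagctactGGAAgggatttgcat
ETS core at 3, minus strand of the gene: gcgagttttacTTCCcctgtgcaggg

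These are common letters. Of 32851 mouse promoters of the same length, 72.3% held an E-box and 96.0% an ETS core, against 1.79% for the CRE, 20.8% for its core, 7.81% for AP-1 and 5.04% for EGR. The promoter window of Sorcs3, a gene described below for its likeness to Blnk, had 7 ETS cores and none of the other motifs. The GC content was 50% in the Blnk window, 51% in that of Sorcs3 and 52.7% in the median promoter.

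Blnk was high in many DG nuclei from 4 h on and low nearly everywhere else. In the 2 mice sampled at 4 h, the mean Blnk level over nuclei was 5.80 (mouse 17) and 5.51 (mouse 21) on the log2(TPM+1) scale, or 5.66 ± 0.20 (SD, n = 2 mice, 68 nuclei). In DG nuclei of the HC mice it was 1.22 (mouse 6) and 0.91 (mouse 7), or 1.06 ± 0.22 (SD, n = 2 mice), and another 2 HC mice with 1 DG nucleus each had 1.20 and 1.47. The single mouse with DG nuclei at 1 h had 1.80 over 26 FOS+ nuclei and 0.69 over 27 FOS− nuclei. The 4 h mice thus stood above every HC and 1 h DG mouse.

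At 5 h the level spread over mice. Mice 8 and 9 had 6.10 and 5.19, while mice 22 and 23 had 3.00 and 3.46, giving 4.43 ± 1.46 (SD, n = 4 mice, 59 nuclei). The lower pair carries another date code in the titles. It is also the pair that lost most nuclei, with 10 and 6 of 24 deposited nuclei kept, although its kept nuclei were deeper (medians of 1776120 and 1555740 counts) than those of mice 8 and 9 (381170 and 350943). The part of date, depth and nuclear quality in this split was not tested.

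**Figure D1:**
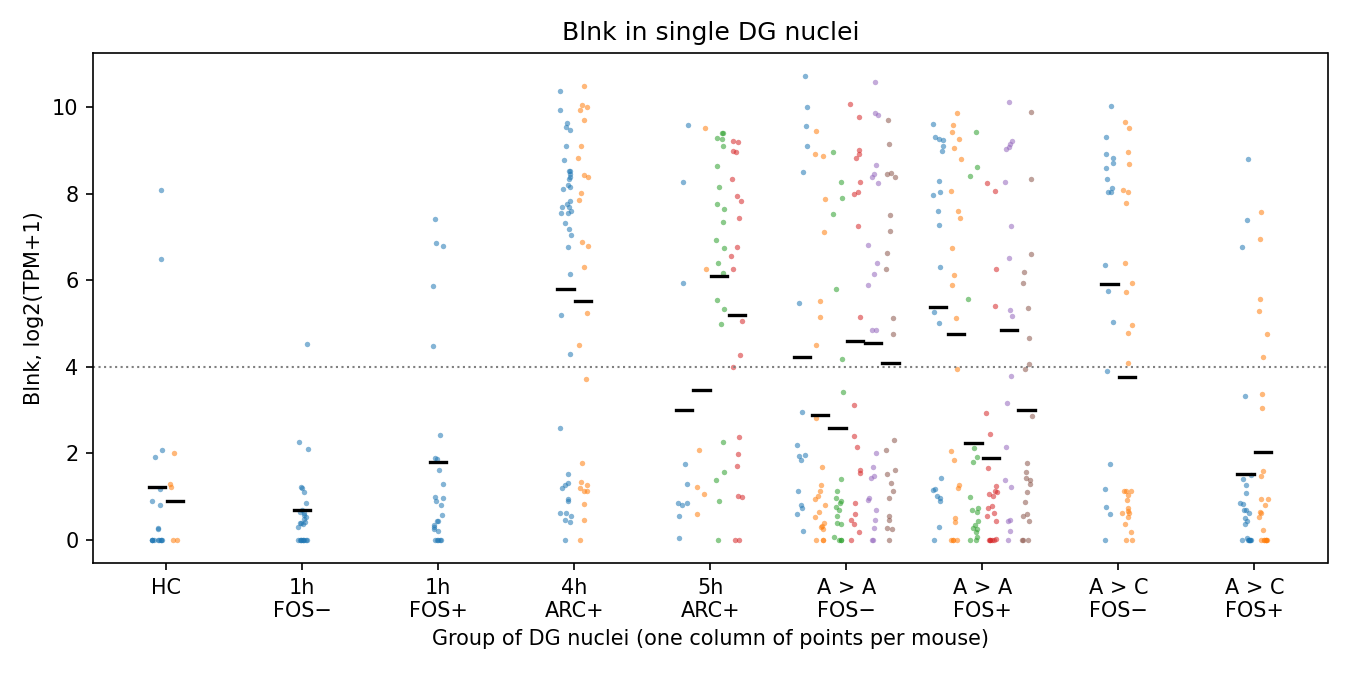
Blnk level, as log2(TPM+1), in each DG nucleus (points), by group on the x axis and with a column of points for each mouse with at least 2 nuclei. Black bars are the mean of each mouse and the dotted line marks the limit of 4. Most groups from 4 h on show a lower band under 2 and an upper band around 8, with few nuclei between them.

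The group means came from a mix of low and high nuclei, with few at an intermediate level. What sets the low and high nuclei apart was not tested. Over all 480 DG nuclei at 4 h, 5 h or after re-exposure, 155 had a Blnk level under 1 and 73 lay between 1 and 2. The bins from 2 to 3, 3 to 4 and 4 to 5 held 18, 12 and 16 nuclei, and the count then rose to 59 nuclei between 8 and 9 and 46 between 9 and 10. A limit of 4 was set in this gap, after the distribution had been seen, and nuclei above it are called Blnk-high. By that limit 222 of the 480 nuclei (46.2%) were Blnk-high, and 28 nuclei (5.83%) lay within 1 of it. This is a range of level, not a cell type.

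The share of Blnk-high nuclei was 66.2% at 4 h (45 of 68, 69.0% and 61.5% in the 2 mice) and 59.3% at 5 h (35 of 59, 30.0% to 77.3% over the 4 mice). It was 8.00% in HC (2 of 25), 19.2% at 1 h FOS+ (5 of 26) and 3.70% at 1 h FOS− (1 of 27). Across the 22 combinations of mouse and group from 4 h on, the share ran from 12.5% to 77.3% (median 47.7%), while the mean level of the Blnk-high nuclei themselves ran from 5.73 to 8.89 (median 7.76). The bimodality coefficient, which is 0.556 for a uniform distribution and higher for a distribution with separate modes or a long tail, was above that value in 18 of the 22. It was also 0.76 in 1 h FOS+ nuclei and 0.77 in A > C FOS+ nuclei, where few nuclei were high, so it does not separate a minor mode from a tail.

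**Figure D2:**
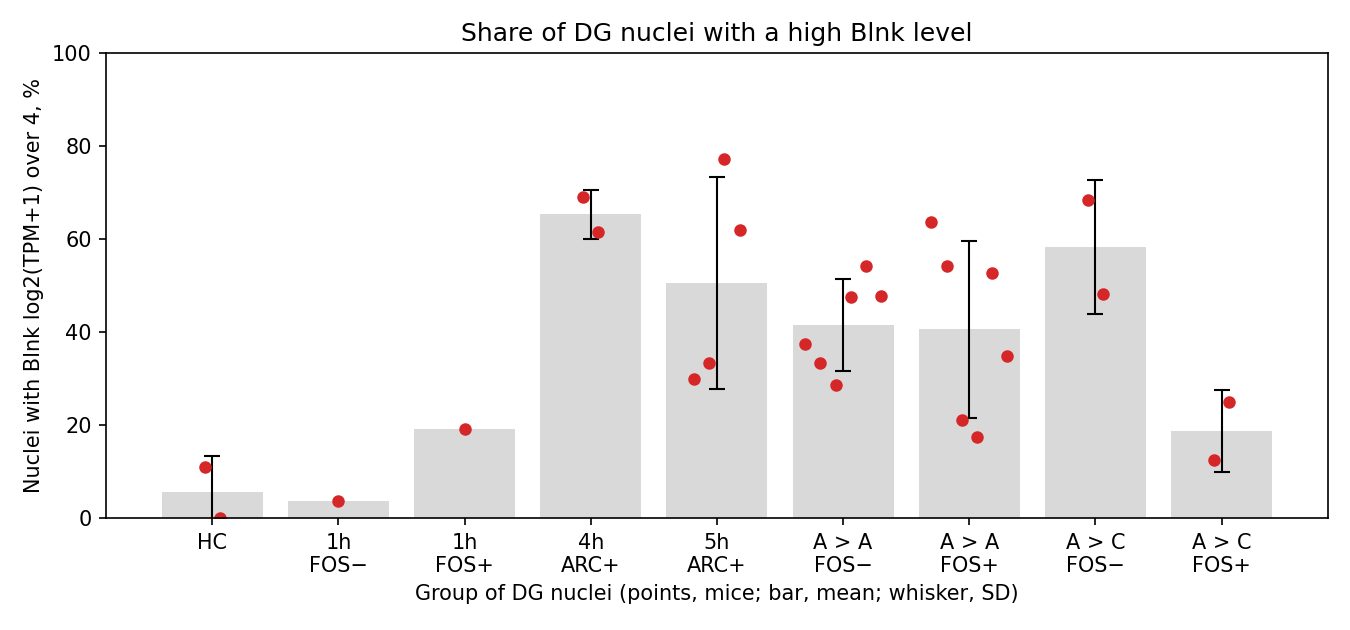
Percent of DG nuclei with a Blnk level over 4, by group. Points are mice, bars the mean over mice with at least 2 nuclei and whiskers the SD. The share exceeds 60% in both mice at 4 h, reaches at most 25.0% in A > C FOS+ nuclei, and spreads from 17.4% to 63.6% over the 6 A > A FOS+ mice.

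The share of nuclei with any Blnk count separated the groups less well. It was 97.1% at 4 h and 56.0% in HC DG nuclei, but also 71.2% in CA1 and 66.7% in VIP nuclei, where the level was low. After each nucleus was thinned to 100000 counts, it was 73.5% at 4 h, 74.6% at 5 h, 28.0% in HC, 38.5% at 1 h FOS+ and 14.8% at 1 h FOS− of DG. Sequencing reads carried no molecular identifiers. Limits on shares treat nuclei as independent, so they cover counting error only and not the spread between mice.

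Outside DG, Blnk-high nuclei were few. Of 225 nuclei, 5 (2.22%) were Blnk-high, and they were 2 of 33 CA1 FOS+, 1 of 13 CA3 FOS+, 1 of 11 Sub FOS+ and 1 of 10 Sub HC nuclei. None of 66 VIP nuclei was high, which allows a share of up to 4.55% if nuclei are taken as independent. That limit leaves out the spread between mice. Among the 20 groups with at least 2 mice, the order from the top was DG 4 h (5.66), DG A > C FOS− (4.84), DG 5 h (4.43), DG A > A FOS− (3.82), DG A > A FOS+ (3.68) and DG A > C FOS+ (1.78), followed by Sub FOS+ (1.48), CA3 FOS+ (1.23), Sub HC (1.22) and DG HC (1.06). The remaining groups lay between 1.05 (VIP FOS−) and 0.56 (Pvalb FOS+). In all 19 pairs of neighbours in this order the ranges over mice overlapped, so no adjacent pair differed beyond its spread.

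**Figure D3:**
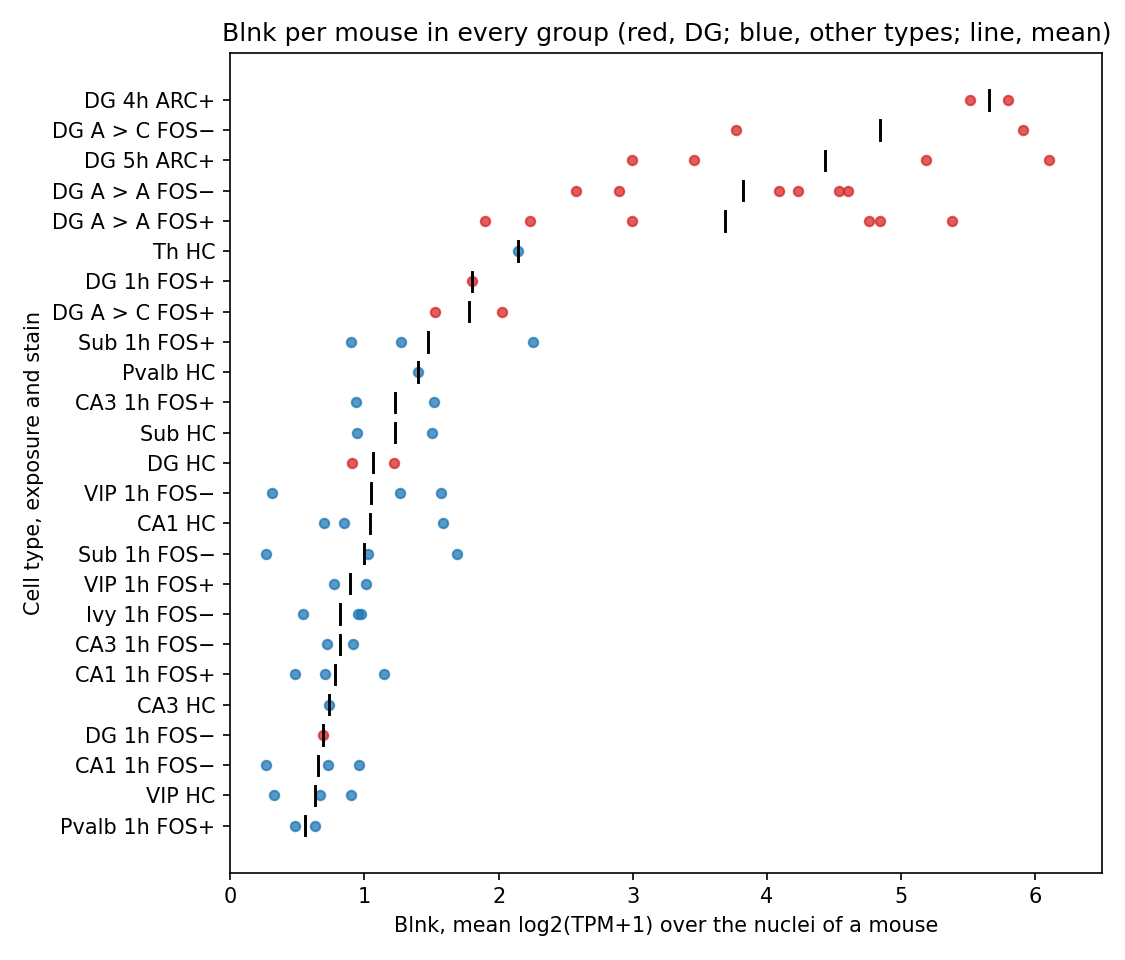
Mean Blnk level, log2(TPM+1), over the nuclei of each mouse (points) in every cell type, exposure and FOS stain, in order of the group mean (vertical line), with DG in red and other types in blue. The 5 DG groups at the top were all sampled at 4 h or later and lead the order with means from 3.68 to 5.66. The other DG group sampled that late, A > C FOS+, lies lower at 1.78. Th HC (2.15) and DG 1 h FOS+ (1.80), each from 1 mouse, lie above it. The CA1 and VIP groups all lie at or below 1.05.

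CA1 pyramidal neurons and VIP interneurons, which had no part in the choice of Blnk, were used to ask whether Blnk moved with activity 1 h after the NE outside DG. Counts were summed per mouse and group and tested with edgeR's quasi-likelihood test over all genes. Summed Blnk in CA1 was 11.2, 2.84 and 1.46 CPM (counts scaled to library size, in the unit of the TMM-normalized sums) in FOS+ nuclei of 3 mice, 2.41, 3.47 and 0.529 CPM in FOS− nuclei of the same mice, and 3.34, 1.92 and 5.91 CPM in HC. The groups overlapped. FOS+ against FOS− gave a log2 fold change of 1.25 (SE 1.07, 95% interval -1.18 to 3.67, edgeR adjusted p = 1.0), and FOS− against HC gave -0.76 (SE 1.07, interval -3.19 to 1.66, edgeR adjusted p = 1.0). The first value rested on mouse 2, whose 24 FOS+ nuclei included both high ones, and was -0.020 without its FOS+ sum.

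Summed Blnk in VIP nuclei was 2.25 and 2.81 CPM in FOS+, 7.52, 1.29 and 6.65 CPM in FOS−, and 0.583, 3.21 and 2.18 CPM in HC. These groups overlapped as well. The 7.52 CPM came from 2 nuclei (21 counts) of a mouse without a FOS+ sum, and the 0.583 CPM from 2 nuclei with 1 count. FOS+ against FOS− gave -1.01 (SE 1.26, interval -3.92 to 1.89, edgeR adjusted p = 1.0) and FOS− against HC gave 1.32 (SE 1.12, interval -1.26 to 3.91, edgeR adjusted p = 0.917). The intervals of all 4 comparisons reach past a log2 difference of 1 in at least one direction. Changes of that size were thus not detectable with these mice, and larger ones would mostly be missed too. Of simulated 16-fold changes, 23% were recovered for CA1 FOS+ over FOS− and 1% for VIP FOS+ over FOS−. The background was 0% of 14507 genes called in both CA1 comparisons and 0% of 14736 in both VIP comparisons by edgeR. At an unadjusted p under 0.05 the counts were 629 and 730 genes in CA1 and 713 and 893 in VIP. By DESeq2 the calls were 226, 261, 180 and 321 genes in the same order.

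Re-exposure asked whether Blnk differed between FOS+ and FOS− DG nuclei, in the familiar or a different context. The study takes the FOS− nuclei as not reactivated. It states that the stains cannot split FOS+ nuclei into reactivated and newly activated ones, so FOS+ here is a mix of both. In the study's clustering, most A > C FOS+ nuclei grouped with the early, 1 h FOS+ signature. FOS+ over FOS− is thus not a comparison of reactivated with not reactivated nuclei. After A > C, Blnk was low in FOS+ nuclei and high in FOS− nuclei. The mean level was 1.53 (mouse 13) and 2.03 (mouse 14) in FOS+, and 5.91 (mouse 11) and 3.77 (mouse 12) in FOS−. Blnk-high nuclei made up 18.8% of FOS+ (9 of 48) and 56.5% of FOS− nuclei (26 of 46). Summed counts were 33.5 and 24.7 CPM against 267 and 110 CPM, so the 2 groups of mice did not overlap.

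The log2 fold change of A > C FOS+ over FOS− was -2.70 (SE 1.06, 95% interval -4.92 to -0.47, unadjusted edgeR p = 0.0202), but the edgeR adjusted p over all genes was 0.905, and DESeq2 gave an adjusted p of 0.0903. The background here was 0.0041% of 24405 genes called, with 1081 genes at an unadjusted p under 0.05 and 1049 called by DESeq2. FOS+ and FOS− nuclei came from different mice with different date codes, so stain, mouse and date cannot be told apart.

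After A > A, the mean Blnk level in FOS+ nuclei was 5.38, 4.76, 2.24, 1.90, 4.84 and 3.00 in mice 15, 16, 24, 25, 26 and 27, or 3.68 ± 1.49 (SD, n = 6 mice, 130 nuclei). In FOS− nuclei it was 4.23, 2.90, 2.58, 4.60, 4.54 and 4.09 in mice 19, 20, 24, 25, 26 and 27, or 3.82 ± 0.87 (SD, n = 6 mice, 129 nuclei). Mice 19 and 20 each carry 2 date codes and were counted as 1 animal each, and by code mouse 20 had 2.47 and 3.94. The groups overlapped almost wholly. The share of Blnk-high nuclei was 40.8% (53 of 130) and 41.9% (54 of 129).

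Levels in A > A FOS+ nuclei differed between date codes. Mice 15 and 16, mice 24 and 25, and mice 26 and 27 each share a code, and the first pair lay above the second with no overlap. In the 4 mice that gave both stains, the FOS+ mean minus the FOS− mean was -0.34, -2.70, 0.30 and -1.09 for mice 24, 25, 26 and 27. It was below 0 in 3 of 4.

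Mice 26 and 27 carry a date code written unlike all others and were taken, on that ground, not to have entered the choice of Blnk. Their summed Blnk was 329 and 131 CPM in FOS+ and 296 and 176 CPM in FOS− nuclei. The log2 fold change was -0.038 (SE 0.99, 95% interval -2.12 to 2.05, edgeR adjusted p = 1.0), and its sign turned to 0.48 without the FOS+ nuclei of mouse 27 and to 0.38 without the FOS− nuclei of mouse 26. The background was 0.0041% of genes called (1143 at an unadjusted p under 0.05, 1075 by DESeq2).

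Between contexts, FOS+ nuclei of mice 26 and 27 (329 and 131 CPM) held more Blnk than FOS+ nuclei of the A > C mice (33.5 and 24.7 CPM), without overlap. The log2 fold change was 2.98 (SE 1.07, 95% interval 0.73 to 5.23, unadjusted edgeR p = 0.0122, edgeR adjusted p = 0.932), DESeq2 gave an adjusted p of 0.0560, and the background was 0% of genes called (1036 at an unadjusted p under 0.05, 1117 by DESeq2). The FOS difference itself, A > A minus A > C, was 2.66 on the log2 scale (SE 1.43, edgeR adjusted p = 1). That test was added after the values had been seen, and edgeR called 0 genes in it (993 at an unadjusted p under 0.05). These comparisons share the A > C FOS+ mice. The contexts also differ in mice and date codes, so context, mouse and date cannot be told apart, and the earlier A > A mouse 25 (mean level 1.90, 36.0 CPM) had a mean level within the A > C FOS+ range.

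FOS− nuclei after re-exposure were compared with FOS− nuclei of DG 1 h after a first exposure, the latter being 27 nuclei of 1 mouse. Summed Blnk was 2.35 CPM in that mouse, against 267 and 110 CPM in A > C and 296 and 176 CPM in the later A > A mice. Every re-exposed mouse lay above it. The log2 fold change was 6.32 for A > C (SE 1.72, 95% interval 2.70 to 9.95, edgeR adjusted p = 1.0) and 6.65 for A > A (SE 1.75, interval 2.97 to 10.3, edgeR adjusted p = 0.767). The 2 tools differed: DESeq2 gave adjusted p-values of 5.63e-05 and 1.84e-05.

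The lone 1 h mouse was assumed to vary like the other groups, both comparisons share it, and the re-exposed nuclei were also sorted for ARC, which the 1 h nuclei were not. The background was 0.0082% of genes called for A > C and 0.0041% for A > A by edgeR, with 549 and 929 genes at an unadjusted p under 0.05 and 399 and 607 called by DESeq2.

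Between 4 h and 5 h the difference in Blnk did not pass the test. Summed counts were 343 and 346 CPM at 4 h, and 261, 226, 146 and 266 CPM at 5 h in mice 8, 9, 22 and 23. On this scale the 4 h mice lay above all 5 h mice, but by the mean level mouse 8 (6.10) lay above both 4 h mice (5.80 and 5.51). The log2 fold change was -0.61 (SE 0.84, 95% interval -2.38 to 1.15, edgeR adjusted p = 0.966), and -0.48 with mice 8 and 9 alone at 5 h, an alternative chosen after seeing the data. The background was 0% of genes called (1296 at an unadjusted p under 0.05, 622 by DESeq2).

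**Figure D4:**
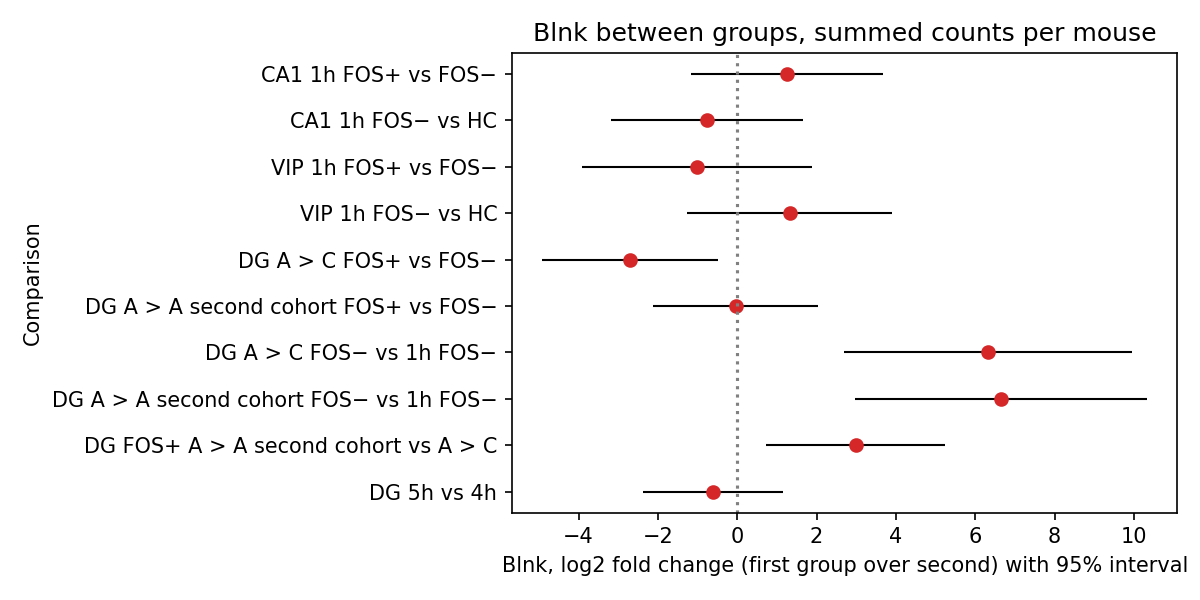
Log2 fold change of Blnk (points) with its 95% interval (lines) in the 10 comparisons tested with edgeR on counts summed per mouse, on an axis of log2 units with 0 dotted. The intervals of 4 DG comparisons leave out 0, those of A > C FOS+ over FOS−, both re-exposed FOS− groups over 1 h FOS−, and A > A over A > C FOS+, and none passed the adjustment over all genes.

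Of the partners through which BLNK acts in B cells, several were sparse in DG nuclei, while others such as Grb2 were not. Cd79b, a signalling chain of the B cell receptor, had no count in any of the 480 nuclei from 4 h on. Cd79a, another such chain, had a count in 9 of 558 DG nuclei. Cd22, listed with them among the receptor genes, had a count in 76.0% of DG nuclei. Syk, the kinase that phosphorylates BLNK, had mean levels of 0.10 to 0.31 over the 9 DG groups, on the log2(TPM+1) scale. Its share of DG nuclei with a count was 21.3%. Btk, the kinase that BLNK brings to phospholipase C gamma, had a count in 2 of 558 DG nuclei. Clnk, a related adaptor, had none in 558, which allows a share of up to 0.538% if nuclei are taken as independent. Lcp2 (SLP-76), the T cell counterpart of BLNK, had mean levels of 0.22 to 0.49 and a count in 41.9% of DG nuclei.

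Downstream, Plcg1 ranged from 0.01 in 1 h FOS+ to 1.67 in HC and Plcg2, the isoform of B cells, from 0.05 in A > A FOS− to 1.00 in HC. Of the VAV exchange factors, Vav2 stayed at or below 0.06 and Vav3 ranged from 0.88 at 4 h to 2.66 in 1 h FOS− nuclei. Grb2, a general adaptor of receptor tyrosine kinases, had a count in 58.6% of DG nuclei. Its group means were 0.77 in 1 h FOS−, 2.63 in 1 h FOS+, 2.84 in HC, 4.65 at 4 h and 4.73 at 5 h. After re-exposure they were 3.36 in A > A FOS−, 3.24 in A > A FOS+, 2.98 in A > C FOS− and 2.89 in A > C FOS+. Mouse means of Grb2, those from 1 nucleus included, overlapped between HC (0 to 4.99) and 5 h (2.76 to 6.12). The neighbouring genes were low in every DG group. Zfp518a ranged from 0 in 1 h FOS+ to 0.26 in A > C FOS−, and Dntt from 0 in 1 h FOS+ to 0.35 at 4 h. Blnk had means of 1.78 (A > C FOS+) to 5.66 (4 h) in the groups from 4 h on.

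Of 58 listed BLNK signalling genes (receptor chains, kinases, adaptors, effectors, phosphatases and the MAP kinase, calcineurin and CREB branches), 50 were tested in DG, and edgeR called 0 in each of 5 comparisons. At an unadjusted p under 0.05, 2 were higher and 4 lower at 1 h FOS+ against HC, 3 and 0 at 4 h, 1 and 4 at 5 h, 0 and 2 for A > C FOS+ over FOS−, and 2 and 2 for FOS+ over FOS− in mice 26 and 27. Of all 24405 genes tested, 1396, 1321, 2436, 1081 and 1143 passed that unadjusted threshold in the same order. The median log2 fold change of the list was 0.00, 0.31, 0.031, -0.082 and 0.014 in that order. Over all genes it was 0.23 at 4 h and 0.00 in the other comparisons. Against HC, edgeR called 0.234% of all genes at 1 h FOS+, 0.217% at 4 h and 0.184% at 5 h.

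DESeq2 called 4 of the list at 1 h FOS+ (Plcg1, Bcl10, Map2k1 and Ppp3ca), 2 at 4 h (Bcl10 and Nfatc3), 5 at 5 h (Lcp2, Bcl10, Map2k1, Mapk9 and Nfatc3), 3 in mice 26 and 27 (Pik3cd, Map2k1 and Nfatc3) and 0 after A > C, beside 1781, 1058, 1917, 1075 and 1049 of all genes. Both sets of calls are out of the genes tested by edgeR, 50 on the list and 24405 in all. The list genes that DESeq2 called were named after their values were seen. Bcl10 had no count in HC, and its DESeq2 log2 fold changes were 25.8 at 1 h FOS+, 21.5 at 4 h and 14.9 at 5 h. Nfatc3 had a count in 3.94% of DG nuclei, with 20.7 at 4 h, 23.9 at 5 h and -24.3 in mice 26 and 27. Values of that size, for genes at or near 0, cannot be read as the size of a change. Map2k1 was lower at 1 h FOS+ (-2.05) and 5 h (-2.06), and higher in mice 26 and 27 (1.68). The 1 h FOS+ group is a single mouse, assumed to vary like the others, and the comparisons with HC share the HC mice.

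Across nuclei, Blnk was set against Sorcs3, a sorting receptor of the VPS10 family, and against Arc. The study named both Blnk and Sorcs3 as late genes from these same nuclei, and classed A > A FOS+ nuclei by the late genes. The likeness of Blnk and Sorcs3 is thus not independent of that choice. Pearson's r with Sorcs3 was 0.50 at 4 h (n = 68 nuclei), 0.16 at 5 h (n = 59), 0.60 in A > A FOS+ (n = 130), 0.25 in A > A FOS− (n = 129), 0.27 in A > C FOS+ (n = 48) and 0.56 in A > C FOS− (n = 46). With Arc it was 0.45, 0.16, -0.13, 0.17, -0.01 and 0.59 in the same order, so r was higher for Sorcs3 in 4 of the 6 groups, about equal at 5 h and higher for Arc in A > C FOS−. The difference was not tested. These are descriptions over nuclei that share mice, libraries and depth. The correlation of Blnk with total counts was -0.25, -0.22, -0.23, -0.02, -0.08 and -0.57 in the same groups.

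The relation with Sorcs3 was seen within mice. It was positive in 18 of 21 combinations of mouse and group with at least 10 nuclei from 4 h on, and in 6 of 6 A > A FOS+ mice (0.33 to 0.77). Arc was positive in 13 of 21, and in 1 of the 6 A > A FOS+ mice. In the later mice 26 and 27, r with Sorcs3 was 0.47 in FOS+ nuclei (n = 42) and -0.12 in FOS− nuclei (n = 47). Within these mice, r in FOS− nuclei was -0.06 (mouse 26) and -0.20 (mouse 27).

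Sorcs3 was high, by the same limit of 4, in 73.6% of Blnk-high and 19.5% of other A > A FOS+ nuclei, in 88.9% and 56.5% at 4 h, in 96.2% and 50.0% in A > C FOS−, and in 90.7% and 72.0% in A > A FOS−. Neither gene implied the other. In A > A FOS− nuclei 54 were high in Sorcs3 alone and 5 in Blnk alone. At 1 h, Sorcs3 was at 0 in all 26 FOS+ DG nuclei, 5 of which were Blnk-high.

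**Figure D5:**
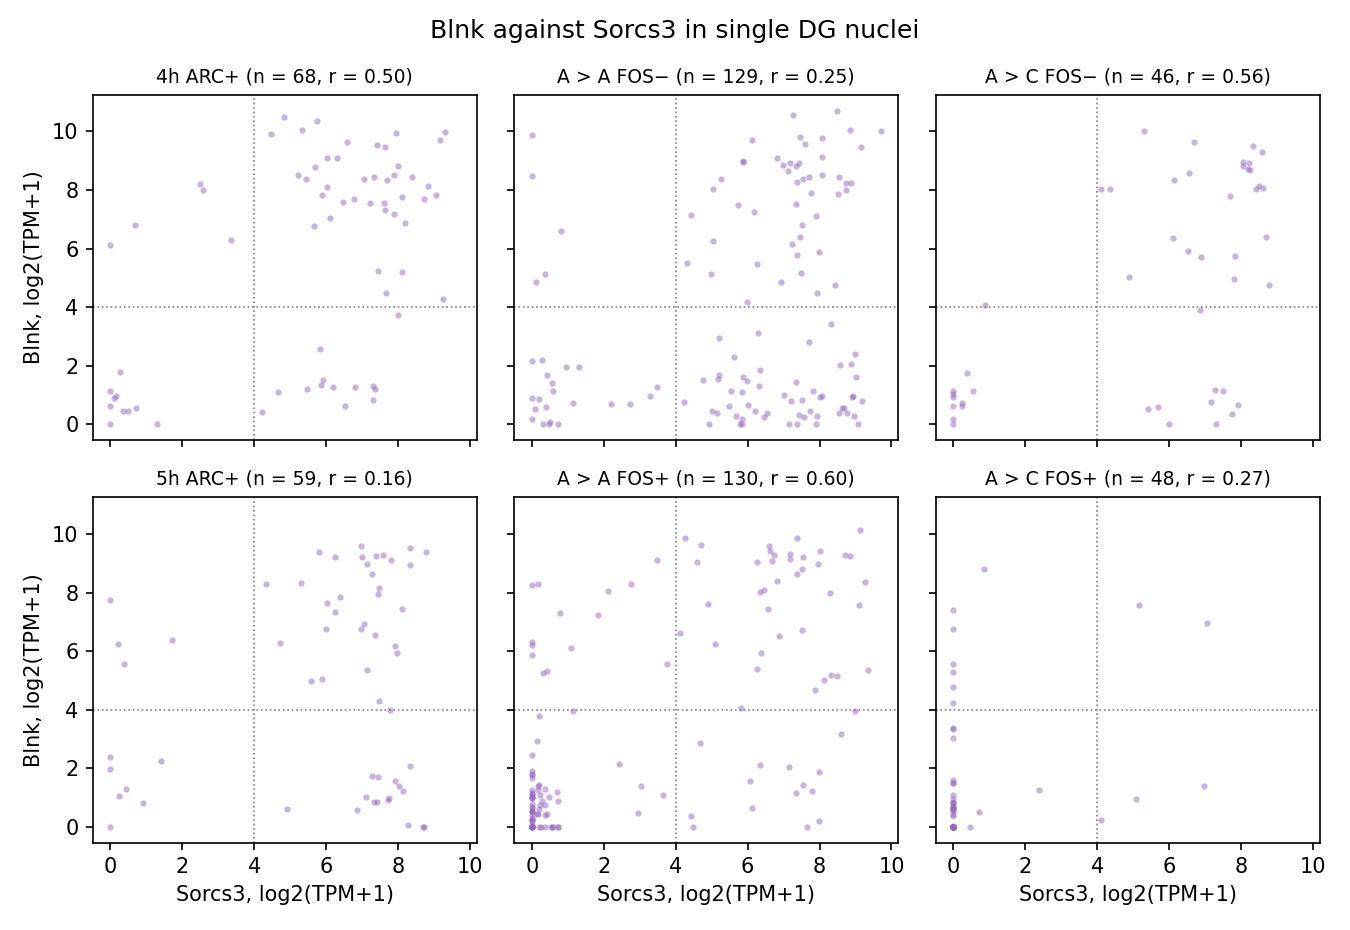
Blnk against Sorcs3, both as log2(TPM+1), in single DG nuclei (points) of the 6 groups from 4 h on, with dotted lines at 4 on each axis and Pearson's r over nuclei above each panel. Nuclei high in Sorcs3 and low in Blnk are common in A > A FOS− (54 nuclei), while in A > A FOS+ most nuclei were high in both (39) or in neither (62).

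Over 26 combinations of mouse and group with at least 5 DG nuclei, the mean levels of 10774 genes were ranked by their likeness to Blnk. The closest were Ppapdc1a (r = 0.84), a lipid phosphatase gene; Cntn3 (0.82), a contactin cell adhesion gene; Slc24a4 (0.82), a sodium, potassium and calcium exchanger; Pxdn (0.82), an extracellular matrix peroxidase; and Sorcs3 (0.82). The 6th, Ptprz1, had 0.81, the median gene 0.014, Arc 0.38 (rank 760) and Fos -0.33. The points share mice, dates and the differences between groups.

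Since these 5 genes were picked for their likeness to Blnk over these same means, their levels are a description. Ppapdc1a had 1.06 in HC, 0.05 in 1 h FOS+, 5.75 at 4 h, 4.57 at 5 h, 5.75 in A > C FOS− and 0.87 in A > C FOS+. Pxdn had 1.81, 0.41, 4.69, 4.85, 5.41 and 1.36, and Sorcs3 had 0.21, 0, 5.60, 5.73, 5.65 and 0.68. Cntn3 and Slc24a4 moved over a smaller range, from 0.97 to 4.01 and from 0.84 to 3.95.

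Because Blnk is expressed by B cells and by some myeloid cells, markers of other cell types were read in the 222 Blnk-high and the 258 other DG nuclei from 4 h on. The granule gene Prox1 averaged 5.03 and 5.32 on the log2(TPM+1) scale, and the 5 DG markers summed to medians of 410 and 445 TPM. The 10 microglia markers summed to medians of 2.5 and 2.3 TPM, with 16 and 12 nuclei over 100 TPM. The 5 B cell markers summed to a median of 5.8 TPM in both. Among them Cd79b was at 0, while Ms4a1 was above 1 in 93.2% and 93.0% of nuclei. Oligodendrocyte markers, whose gene Opalin lies 67174 bp from Blnk, summed to medians of 1.5 and 2.0 TPM, with 63 and 75 nuclei over 100 TPM. Among the other granule genes, C1ql2 averaged 4.23 and 4.43, Dock10 4.91 and 4.23, Calb1 2.15 and 3.47 and Dsp 0.31 and 0.59. Granule cell markers were thus present in both sets of nuclei, with Calb1 lower in the Blnk-high set, a difference that was not tested.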

How the data were processed

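Single nuclei were sorted by flow cytometry, amplified with Smart-seq2 and sequenced as single-end 50 bp reads. Per the labels and the study's methods, the authors aligned reads to mm10 with RSEM and Bowtie and deposited expected counts per gene as whole numbers, and a table of log2(TPM+1). The Ensembl release is not given in the sources used here. RSEM shares reads among similar transcripts, and 9 kept nuclei have a Blnk count of 0 with a level above 0. Genes without a value in some library (30 in the counts, 23 in the log2 values) were left out.

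Nuclei with at least 100000 aligned reads and 4000 genes above log2(TPM+1) of 1 were kept, after the study's methods, and 35 HC and 1 h FOS− nuclei with Arc above 2.5 were left out. Levels were averaged per mouse over at least 2 nuclei. For tests, counts were summed per mouse and group (at least 2 nuclei) and fitted with edgeR 4.0.16 (R 4.3.3; TMM, filterByExpr, glmQLFit, glmQLFTest), with 1 fit each for CA1, VIP and DG and Benjamini-Hochberg adjustment over all genes tested, at a threshold of 0.05. This replaces the study's test over nuclei, since nuclei of 1 mouse are not replicates. DESeq2 1.42.0, limma 3.58.1, other filters, other normalization, leaving out each mouse, and the mouse as a block were the alternatives. The mean level and shares were computed with Python 3.11.15, pandas 2.3.3 and scipy 1.17.1. The scripts were tested on simulated counts. Of simulated 4-fold changes 0% to 2% were recovered, and of 16-fold changes 1% to 23%, depending on the comparison. The lack of a call thus says little about a lack of change. No 2 libraries held identical counts.

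In CA1, VIP and the later A > A cohort, FOS+ and FOS− sums came from the same mice. The exception was a VIP FOS− mouse (mouse 2) without a FOS+ sum, whose value is the first in the printed order. For sums of the same mouse, the deviations from the group means correlated at 0.04 to 0.07 in CA1, 0.02 in VIP and -0.01 in that cohort.

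The genes named are Blnk, Arc, Sorcs3, the 5 genes most like Blnk, its 2 neighbours, 9 signalling partners and list genes past the threshold. Other genes, such as Cd79a, Cd79b, Cd22, Fos, Ptprz1, the marker genes and the genes DESeq2 called, were named outside that rule, some after their values were seen. Blnk, these lists and the tests were chosen with earlier results of these data known. Promoter windows are from RefSeq (GRCm38.p6), where Blnk and Sorcs3 were matched. Some items are not reported here.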

Additional observations from a re-analysis of the deposited data

How the results depend on the processing

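Of the 10 Blnk comparisons, none passed edgeR's threshold under any edgeR or limma alternative. DESeq2 called 2 of them, A > C FOS− over 1 h FOS− (log2 fold change 6.34, adjusted p = 5.63e-05) and the later A > A FOS− over 1 h FOS− (6.57, adjusted p = 1.84e-05); both rest on the same single 1 h mouse. Keeping nuclei with high Arc turned CA1 FOS− against HC from -0.76 to 0.52. Leaving out 1 mouse at a time moved CA1 FOS+ over FOS− between -0.020 and 1.77, with the sign turning without mouse 2, and FOS+ over FOS− in mice 26 and 27 between -0.85 and 0.48. It moved CA1 FOS− against HC between -1.26 and -0.28, VIP FOS+ over FOS− between -1.49 and -0.61 and VIP FOS− against HC between 0.92 and 1.86. On mean levels, limma gave 0.13 for CA1 FOS+ over FOS− and -1.22 for 5 h over 4 h; the cause was not tested. The counts of BLNK signalling genes went from 0 by edgeR to 4 at 1 h, 2 at 4 h, 5 at 5 h and 3 in the later A > A mice by DESeq2. With the mouse as a replicate block, Blnk FOS+ over FOS− was 1.12 in CA1, -0.25 in VIP and -0.12 in mice 26 and 27 (edgeR adjusted p = 1 in each), and no call changed.

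Over all genes DESeq2 called 180 to 1917 genes a comparison where edgeR called 0 to 57, so any count of genes here depends on the tool. DESeq2 gave no adjusted p for VIP FOS− against HC, and leaving out the only 1 h FOS− mouse of DG was not possible. With all nuclei kept, 22 of 25 mean levels moved by less than the SD over mice, and the other 3 were groups of 1 mouse with no SD. After thinning, 22 of 30 shares of nuclei with a count moved. The tested DG groups held 1 to 4 mice, which limits every interval on Blnk.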
